A study of Homo sapiens with 49 samples.

Results

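A group of 9 regulators of intracellular signalling were followed in lymphoma cells exposed to doxorubicin: TAGAP, RGS1, RGS2, TRIB1, BHLHE40, PDE4B, PDE4D, LDLRAD4 and KBTBD7. The 9 genes were chosen out of the 19775 genes measured and were selected on their difference between 2.5 µg/mL and untreated cells at 2 h, so the values at that dose and time describe them and no test is given there. The array carries 30 probe sets that are annotated to 1 of these genes and to no other, and each gene was read from the brightest of its probe sets by the mean of the 49 arrays. Its level is given as a log2 intensity, on which a difference of 1.0 is 2-fold. Of the members 7 were lower in all 6 lines at 2 h, but RGS2 was lower in 4 of 6 and PDE4D in 5 of 6, by 0.28 and 0.16 on average, so that the grouping as early-falling genes does not hold for these 2.

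Doxorubicin is a DNA-binding anthracycline that poisons topoisomerase II. The 6 established lines, all from diffuse large B-cell lymphoma, a mature B-cell tumour, were U2932, RIVA, OCI-Ly7, FARAGE, NU-DHL-1 and SU-DHL-5. Without drug, arrays were made at 0, 2 and 12 h (6 lines each) and at 48 h (U2932, RIVA and OCI-Ly7). Cells at 0.00061 µg/mL were profiled at 2 and 12 h (6 lines each) and at 48 h (the same 3 lines). Cells at 2.5 µg/mL were profiled at 2 h (6 lines), at 12 h (the 5 lines other than SU-DHL-5) and at 48 h (U2932 and RIVA). Each line gave 1 array per dose and time, and all lines were grown in serum-containing medium with antibiotics. The line is therefore the replicate, and a difference is the treated array minus the matching untreated one (same line, same time). The labels do not mention repeated cultures of a line.

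The members act as brakes and switches behind surface receptors. RGS proteins speed up the GTPase step that turns off heterotrimeric G proteins, and RGS1 in particular restrains chemokine-driven migration of B cells. PDE4 enzymes degrade cyclic AMP, the messenger made when other G-protein-coupled receptors are engaged. Several of these genes are known as immediate early or activation-induced genes, whose transcripts are short-lived, and a pseudokinase (TRIB1), a transcriptional repressor (BHLHE40) and an adaptor of a ubiquitin ligase (KBTBD7) complete the group.

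The B-cell identity of the arrays was checked first. All 5 measured B-cell markers (MS4A1, CD79A, CD79B, PAX5 and CD22) lay above the median gene of 5.83, and their mean level ran from 10.8 to 11.9 over the arrays. None of 5 T-cell, 5 myeloid or 5 epithelial markers had a mean above the median gene, against HBB among 2 erythroid markers and COL1A1 and DCN among 4 fibroblast markers. The mean level of the fibroblast list ran from 4.95 to 6.03 over the arrays. All values below are relative to the bulk of genes, because the arrays were quantile normalised. The poly-A control transcripts, spiked into the RNA before labelling, were higher at 2.5 µg/mL than in untreated cells by 0.27 ± 0.21 (SD, n = 6) at 2 h, 1.59 ± 0.46 (n = 5) at 12 h and 2.89 ± 0.28 (n = 2) at 48 h. The hybridisation controls, added after labelling, were higher by 0.02 ± 0.08, 0.66 ± 0.35 and 1.45 ± 0.66. On the poly-A scale the median gene at 12 h lay 1.40 lower in treated cells, on the hybridisation scale 0.46 lower, and as deposited 0.20 higher. The part that these control shifts have in the members' values was not tested, and fewer cells of a type and less RNA per cell cannot be told apart in such bulk RNA.

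RGS1 and RGS2 lie on chromosome 1 with a gap of 229 kb between them, and gave different values at 12 h, and their start regions also differ. These are shown with those of TAGAP and LDLRAD4, which had the deepest falls at 12 h. Each is the 250 bases before and 50 bases after 1 transcription start of the gene in RefSeq (GRCh38.p14). Other starts of a gene were not read. Capitals mark the matches described below. The windows are chr1:192575523-192575822 (RGS1, plus strand), chr1:192808789-192809088 (RGS2, plus strand), chr6:159042304-159042603 (TAGAP, minus strand) and chr18:13217722-13218021 (LDLRAD4, plus strand).
RGS1: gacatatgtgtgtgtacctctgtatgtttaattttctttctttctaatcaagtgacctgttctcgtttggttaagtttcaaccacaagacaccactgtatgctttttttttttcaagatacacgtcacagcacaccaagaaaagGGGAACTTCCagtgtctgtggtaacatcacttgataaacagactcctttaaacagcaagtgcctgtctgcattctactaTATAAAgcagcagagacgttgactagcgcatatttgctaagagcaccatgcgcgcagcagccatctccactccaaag
RGS2: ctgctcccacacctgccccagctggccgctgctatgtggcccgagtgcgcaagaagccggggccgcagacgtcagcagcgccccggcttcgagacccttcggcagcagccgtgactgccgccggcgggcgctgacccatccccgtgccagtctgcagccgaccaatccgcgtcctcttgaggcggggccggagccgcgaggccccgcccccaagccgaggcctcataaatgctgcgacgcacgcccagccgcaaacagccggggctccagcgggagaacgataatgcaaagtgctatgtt
TAGAP: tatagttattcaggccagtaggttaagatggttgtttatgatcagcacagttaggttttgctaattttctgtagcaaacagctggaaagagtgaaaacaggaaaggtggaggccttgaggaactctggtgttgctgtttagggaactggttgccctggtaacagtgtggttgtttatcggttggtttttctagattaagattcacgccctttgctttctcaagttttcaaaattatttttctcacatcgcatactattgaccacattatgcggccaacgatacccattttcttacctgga
LDLRAD4: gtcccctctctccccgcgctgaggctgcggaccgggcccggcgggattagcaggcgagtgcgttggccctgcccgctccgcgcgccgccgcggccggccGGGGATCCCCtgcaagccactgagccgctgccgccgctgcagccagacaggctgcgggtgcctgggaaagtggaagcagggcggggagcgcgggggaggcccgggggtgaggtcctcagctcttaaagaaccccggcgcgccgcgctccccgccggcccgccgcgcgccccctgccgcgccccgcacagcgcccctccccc

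Promoter windows were read for 7 members (TAGAP, RGS1, RGS2, BHLHE40, PDE4B, PDE4D and LDLRAD4). TRIB1 was left out of this reading, and no window was at hand for KBTBD7. The windows of TAGAP, PDE4D and LDLRAD4 lie inside the annotated span of the gene, so their starts are not the outermost ones. Base composition and motifs hold for these windows only. The RGS1 window holds 41.7% G and C and 6 CpG, whereas the RGS2 window holds 69.7% and 32 CpG. Over the 27305 promoters in the table the medians were 58.3% and 14 CpG. TAGAP (40.7%) and PDE4D (37.7%) resembled RGS1 in base composition, and LDLRAD4 (79.0%), BHLHE40 (68.0%) and PDE4B (61.7%) lay above the median. A set of 6 motifs was searched on both strands. The RGS1 window holds TATAAA at position -27 from the start, as do 12.0% of all windows anywhere in their length. It also holds a match to the NF-kB motif at position -106, and the LDLRAD4 window holds one at position -151. The NF-kB motif is found in 10.8% of all windows. The BHLHE40 window holds the E-box CACGTG (7.43% of all windows) and the PDE4D window the AP-1 motif TGANTCA (7.76%). No window of the 7 holds the cyclic AMP response element TGACGTCA (1.98% of all) or a CArG box (1.29%). The windows of RGS2, TAGAP and PDE4B matched none of the 6 motifs. None of these motifs overlaps another in the windows, and a match is a description of the letters only.

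The members also differ in gene length. Of the 9, 6 are compact: RGS2 spans 3.24 kb, RGS1 4.25 kb, KBTBD7 4.74 kb, BHLHE40 5.89 kb, TRIB1 8.05 kb and TAGAP 10.5 kb, all below the 24.7 kb of the median gene. LDLRAD4 (435 kb), PDE4B (582 kb) and PDE4D (1553 kb) lie at the 97.9, 98.9 and 99.9 percentiles of gene length. Long genes (LDLRAD4 and PDE4B) and compact ones (TAGAP, RGS1 and KBTBD7) were both among those called lower at 12 h.

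Before treatment the lines already differed widely in several members. Over the untreated arrays at 0, 2 and 12 h, RGS1 averaged 11.2 ± 0.3 (SD, n = 3 arrays) in FARAGE, 10.9 ± 0.2 in U2932, 8.14 ± 0.68 in SU-DHL-5, 7.89 ± 0.87 in NU-DHL-1, 6.14 ± 0.19 in RIVA and 3.73 ± 0.53 in OCI-Ly7. SU-DHL-5 and NU-DHL-1 overlapped and the other neighbours in this order did not. BHLHE40 spread as widely, from 10.8 in NU-DHL-1 to 3.33 in OCI-Ly7, with RIVA, U2932, SU-DHL-5 and FARAGE between them, each overlapping its neighbour among these 4. PDE4B ran from 9.35 in U2932 to 4.35 in OCI-Ly7. OCI-Ly7 thus had the lowest levels of RGS1, BHLHE40, PDE4B, PDE4D (overlapping RIVA) and KBTBD7, and its RGS1 and BHLHE40 signals lay well below the median gene. RGS2 was highest in FARAGE (12.2) and U2932 (11.1), the same 2 lines that led in RGS1. TRIB1 and TAGAP varied least, by 1.77 and 2.04 between the highest and the lowest line.

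**Figure D1:**
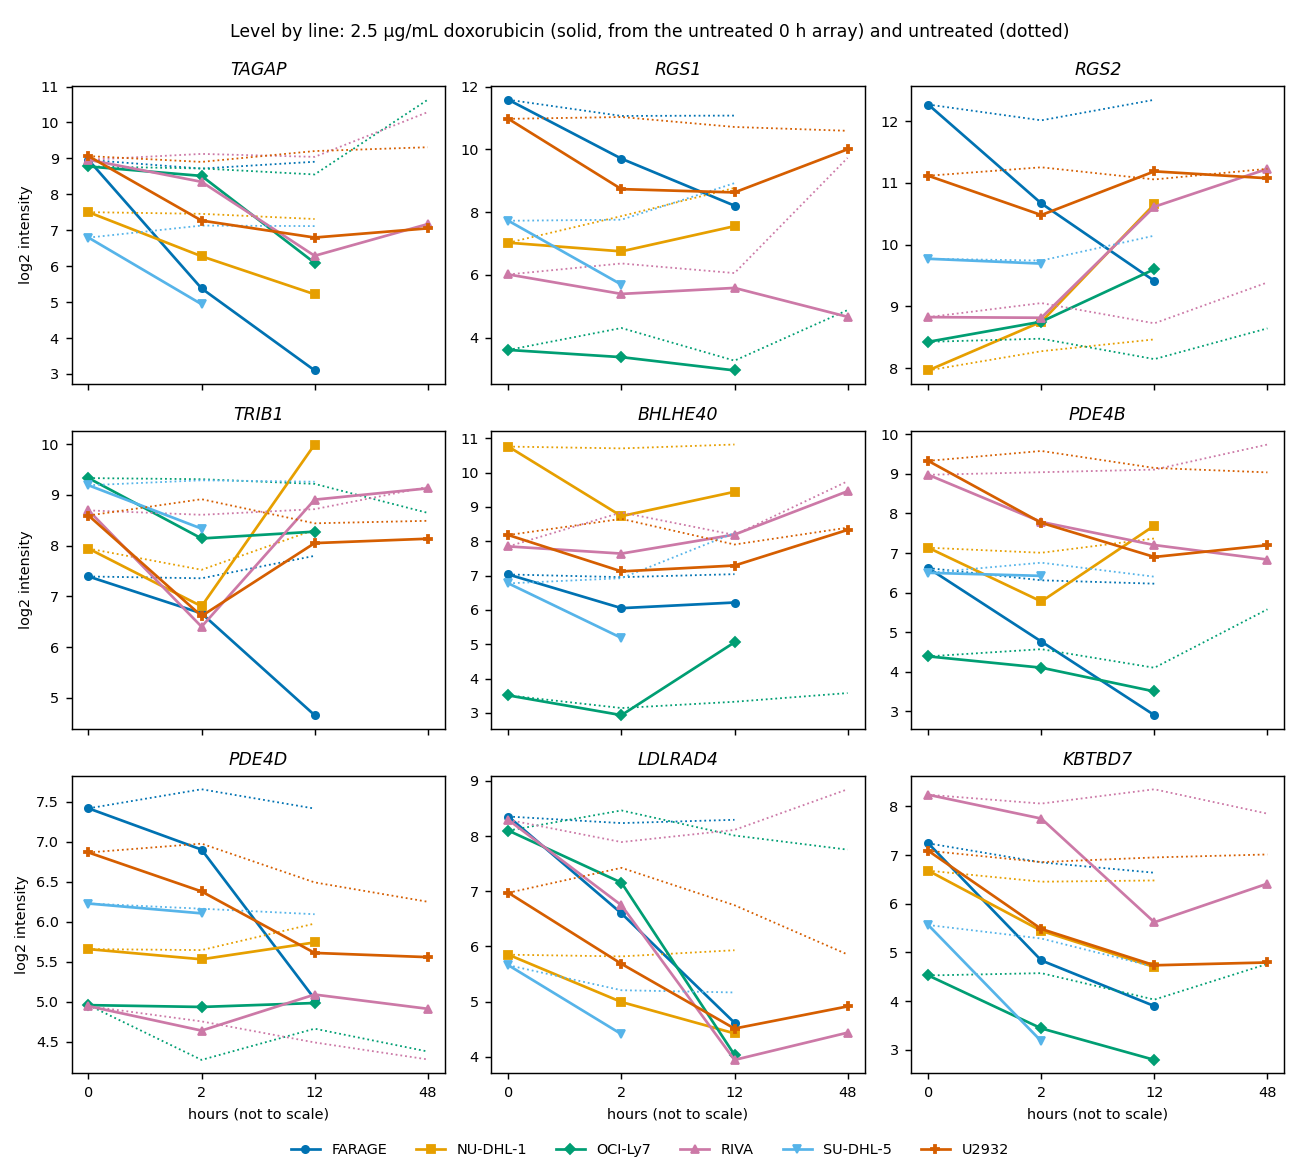
Log2 intensity of each member (vertical axes, scaled separately) against time in h (horizontal axis, not to scale) for the 6 lines. Solid lines with markers join the untreated 0 h array to the arrays at 2.5 µg/mL, and dotted lines join the untreated arrays; TAGAP, LDLRAD4 and KBTBD7 stay below their untreated arrays at 12 h in all 5 lines, and RGS2 is above its untreated array in 4 of 5.

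RGS1, which restrains B-cell migration, was lower at 2 h in every line. At 2.5 µg/mL it stood at 3.38, 5.39, 5.69, 6.75, 8.73 and 9.70 in OCI-Ly7, RIVA, SU-DHL-5, NU-DHL-1, U2932 and FARAGE, against 4.31, 6.36, 7.76, 7.87, 11.03 and 11.07 in the untreated arrays of the same lines. Each line was thus lower than its own control, by 1.46 ± 0.59 on average (SD, n = 6), while the 2 groups of arrays overlapped because the lines differ. At 12 h RGS1 read 8.21 against 11.08 in FARAGE, 7.55 against 8.77 in NU-DHL-1, 2.95 against 3.27 in OCI-Ly7, 5.58 against 6.06 in RIVA and 8.63 against 10.71 in U2932. It fell by 1.39 ± 0.39 (SE; 2.62-fold; limma, adjusted p = 0.0301), lower in 5 of 5 lines, with the gap wide in FARAGE and U2932 and narrow in OCI-Ly7 and RIVA. The OCI-Ly7 arrays at 2 and 12 h lay below the median probe set of every array (4.835 to 5.04). How far background signal sets the RGS1 differences in that line was not tested. The call was lost without FARAGE (-1.02; adjusted p = 0.0587), without RIVA (-1.62; adjusted p = 0.0517) and without U2932 (-1.22; adjusted p = 0.0929), and against untreated 0 h arrays (-1.26; adjusted p = 0.0892).

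RGS2, a regulator with a preference for Gq, went both ways between lines. At 2 h it stood at 10.67 against 12.01 in FARAGE and 10.48 against 11.25 in U2932, but at 8.75 against 8.27 in NU-DHL-1 and 8.75 against 8.48 in OCI-Ly7. RIVA and SU-DHL-5 differed little from their controls, by -0.24 and -0.05. At 12 h the levels were 9.41 against 12.35 in FARAGE, 10.66 against 8.47 in NU-DHL-1, 9.60 against 8.15 in OCI-Ly7, 10.61 against 8.73 in RIVA and 11.19 against 11.06 in U2932. FARAGE, the line with the highest RGS2, was lower by 2.93, and the other 4 lines were higher. The mean difference of 0.55 ± 0.67 (SE) did not pass (adjusted p = 0.523), but without FARAGE it was 1.42 and passed (limma, adjusted p = 0.0272). On the hybridisation-control scale 3 of the 5 lines were still higher, and on the poly-A scale 2 of 5, with means of -0.11 and -1.05. RGS2 has a single probe set, so no other probe set on the array reads the same gene alone.

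TAGAP, a GTPase-activating protein expressed in activated lymphocytes, had the largest mean difference at 2 h. Treated arrays read 5.38 in FARAGE, 6.28 in NU-DHL-1, 8.51 in OCI-Ly7, 8.35 in RIVA, 4.94 in SU-DHL-5 and 7.27 in U2932, against 8.72, 7.46, 8.72, 9.12, 7.13 and 8.90 without drug. The mean difference was -1.55 ± 1.11 (SD, n = 6), from -3.33 in FARAGE to -0.21 in OCI-Ly7. By 12 h TAGAP stood at 3.10 against 8.91 in FARAGE, 5.22 against 7.31 in NU-DHL-1, 6.09 against 8.55 in OCI-Ly7, 6.29 against 9.04 in RIVA and 6.80 against 9.20 in U2932. The treated and untreated arrays no longer overlapped, and OCI-Ly7 and RIVA, which had differed least at 2 h, now had gaps as wide as those of NU-DHL-1 and U2932. TAGAP fell by 3.10 ± 0.51 (SE; 8.60-fold; limma, adjusted p = 0.0056), with FARAGE at -5.81 and the other 4 lines between -2.75 and -2.09. The treated FARAGE level at 12 h lay below the median probe set of every array, and how far background signal sets this gap was not tested.

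The cyclic AMP phosphodiesterases split. PDE4B at 2 h read 4.76 against 6.31 in FARAGE, 5.78 against 7.01 in NU-DHL-1, 4.10 against 4.57 in OCI-Ly7, 7.78 against 9.04 in RIVA, 6.42 against 6.76 in SU-DHL-5 and 7.76 against 9.58 in U2932. It was lower in every line, least in SU-DHL-5 and OCI-Ly7, by 1.11 ± 0.59 on average (SD, n = 6). At 12 h it read 2.90 against 6.23 in FARAGE, 3.50 against 4.10 in OCI-Ly7, 7.20 against 9.11 in RIVA and 6.90 against 9.15 in U2932, but 7.69 against 7.37 in NU-DHL-1. PDE4B fell by 1.55 ± 0.48 (SE; 2.93-fold; limma, adjusted p = 0.0397), lower in 4 of 5 lines, and the call was lost without FARAGE, OCI-Ly7, RIVA or U2932 (adjusted p = 0.0957, 0.0668, 0.104 and 0.112). It was also lost in limma with a variance that did not follow the level (adjusted p = 0.0534) and with the mean of all probe sets (adjusted p = 0.0519). The treated FARAGE array and both OCI-Ly7 arrays at 12 h lay below the median probe set of every array. How far background signal sets the PDE4B differences was not tested. PDE4D, the longest member and the dimmest, with a mean of 5.69, was lower in FARAGE by 0.75 and in U2932 by 0.60 at 2 h and was higher by 0.66 in OCI-Ly7. At 12 h its difference was -2.38 in FARAGE, -0.88 in U2932, -0.24 in NU-DHL-1, 0.32 in OCI-Ly7 and 0.60 in RIVA. The lines thus went both ways, and the mean of -0.52 ± 0.40 (SE) did not pass (limma, adjusted p = 0.311). Of the 5 lines with arrays at 12 h, PDE4D was lower in the 3 with the most of it and higher in the 2 with the least. The untreated 12 h array enters both the level and the difference. In OCI-Ly7 and RIVA it read 4.66 and 4.49, below the median probe set, so this order is a description only.

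TRIB1, a pseudokinase that brings substrates to the COP1 ubiquitin ligase, was lower at 2 h in every line and, as deposited, stood above its 2 h level in 4 of 5 lines at 12 h. At 2 h it read 6.67 against 7.36 in FARAGE, 6.80 against 7.52 in NU-DHL-1, 8.14 against 9.31 in OCI-Ly7, 6.40 against 8.61 in RIVA, 8.33 against 9.29 in SU-DHL-5 and 6.61 against 8.91 in U2932. RIVA and U2932 showed the widest gaps, with a mean over lines of -1.34 ± 0.73 (SD, n = 6). At 12 h the levels were 4.66 against 7.80 in FARAGE, 9.99 against 8.31 in NU-DHL-1, 8.28 against 9.22 in OCI-Ly7, 8.91 against 8.72 in RIVA and 8.05 against 8.44 in U2932. From 2 to 12 h of drug the TRIB1 level differed by 3.19 in NU-DHL-1, 2.50 in RIVA, 1.44 in U2932, 0.13 in OCI-Ly7 and -2.01 in FARAGE. The mean difference of -0.52 ± 0.58 (SE) from untreated cells did not pass (limma, adjusted p = 0.482), and without FARAGE it was 0.13. On the control scales the mean was -1.61 at 2 h and -2.11 at 12 h on the poly-A scale, and -1.36 and -1.18 on the hybridisation scale. Both 12 h values were called lower in limma (adjusted p = 2.56e-07 and 0.0199), as were 94.8% and 34.6% of all genes on these scales.

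BHLHE40, a basic helix-loop-helix repressor that also acts in the circadian clock, was also lower in every line at 2 h. At 2 h it read 6.05 against 6.96 in FARAGE, 8.73 against 10.71 in NU-DHL-1, 7.64 against 8.84 in RIVA, 5.19 against 6.93 in SU-DHL-5 and 7.12 against 8.65 in U2932. OCI-Ly7, which has little of it, read 2.94 against 3.14, and the mean over all lines was -1.26 ± 0.64 (SD, n = 6). At 12 h BHLHE40 read 6.22 against 7.04 in FARAGE, 9.44 against 10.82 in NU-DHL-1, 5.06 against 3.33 in OCI-Ly7, 8.20 against 8.19 in RIVA and 7.29 against 7.91 in U2932. As deposited, every line was higher at 12 h than at 2 h of drug, by 0.16 to 2.12, and OCI-Ly7 was then above its untreated array. On the poly-A scale, in contrast, the mean difference from untreated cells was -1.53 at 2 h and -1.81 at 12 h (called lower in limma, adjusted p = 8.22e-06), and FARAGE, NU-DHL-1 and U2932 lay further below their controls at 12 h than at 2 h. Of all genes 94.8% were called lower at 12 h on the poly-A scale. On the hybridisation scale the mean was -1.28 at 2 h and -0.87 at 12 h, and the latter was not called. As deposited, the 12 h mean of -0.22 ± 0.42 (SE) did not pass (limma, adjusted p = 0.691) and was 0.075 without NU-DHL-1.

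LDLRAD4, a membrane protein that binds receptor SMADs and dampens TGF-beta signalling, was the most even at 2 h. It read 6.60 against 8.24 in FARAGE, 4.99 against 5.82 in NU-DHL-1, 7.16 against 8.46 in OCI-Ly7, 6.75 against 7.89 in RIVA, 4.41 against 5.21 in SU-DHL-5 and 5.69 against 7.43 in U2932. The difference was -1.24 ± 0.40 (SD, n = 6), the smallest SD among the 7 members that were lower in every line. At 12 h all 5 treated arrays lay between 3.95 and 4.62, against untreated levels of 8.30 in FARAGE, 5.93 in NU-DHL-1, 8.01 in OCI-Ly7, 8.11 in RIVA and 6.75 in U2932. The groups did not overlap, and LDLRAD4 fell by 3.11 ± 0.40 (SE; 8.64-fold; limma, adjusted p = 0.0025). The treated levels lay below the median probe set of every array (4.835 to 5.04), and how far background signal sets their narrow range and the size of the fold was not tested.

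KBTBD7, a BTB-kelch protein that serves as substrate adaptor of the CUL3 ubiquitin ligase, was at 2 h 4.84 against 6.85 in FARAGE, 5.44 against 6.45 in NU-DHL-1, 3.44 against 4.57 in OCI-Ly7, 7.75 against 8.06 in RIVA, 3.18 against 5.29 in SU-DHL-5 and 5.48 against 6.85 in U2932. RIVA, the line with the most KBTBD7, differed least at 2 h, and the mean was -1.32 ± 0.67 (SD, n = 6). At 12 h KBTBD7 stood at 3.90 against 6.64 in FARAGE, 4.70 against 6.48 in NU-DHL-1, 2.79 against 4.03 in OCI-Ly7, 5.62 against 8.35 in RIVA and 4.74 against 6.95 in U2932. RIVA had by then a gap as wide as that of FARAGE. KBTBD7 fell by 2.14 ± 0.25 (SE; 4.40-fold; limma, adjusted p = 0.00185), lower in 5 of 5 lines. The treated levels other than that of RIVA, and untreated OCI-Ly7, lay below the median probe set of every array (4.835 to 5.04). How far background signal sets the size of the fold was not tested.

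In all, 5 of the 9 members (TAGAP, RGS1, PDE4B, LDLRAD4 and KBTBD7) were thus called lower at 12 h, none was called higher, and 4 did not pass. Of all genes 32.8% were called at 12 h, 14.7% lower and 18.2% higher. The median of the members was -1.39 against 0.20 over all genes. The members were chosen on their 2 h difference at the same dose, in lines that include these 5. Their 12 h median and counts are thus a description beside those of all genes. The split of all calls depended on the scale: 2903 genes were lower and 3591 higher as deposited, 3133 and 1709 with each array centred on its median gene, 6839 and 206 on the hybridisation-control scale, and 18745 and 45 on the poly-A scale. On the hybridisation-control scale TRIB1 and PDE4D were called lower too, 7 members in all, where 34.6% of genes were called lower. On the poly-A scale all 9 were, where 94.8% of genes were. TAGAP, LDLRAD4 and KBTBD7 were called lower with each of the 5 lines left out in turn.

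At 2 h, for which no test is read on the members, 10.4% of all genes were called, 6.38% lower, and 8.13% were lower in all 6 lines. The 7 members lower in all lines ranged from a mean of -1.55 (TAGAP) to -1.11 (PDE4B). RGS2 and PDE4D stood well apart at -0.28 and -0.16.

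**Figure D2:**
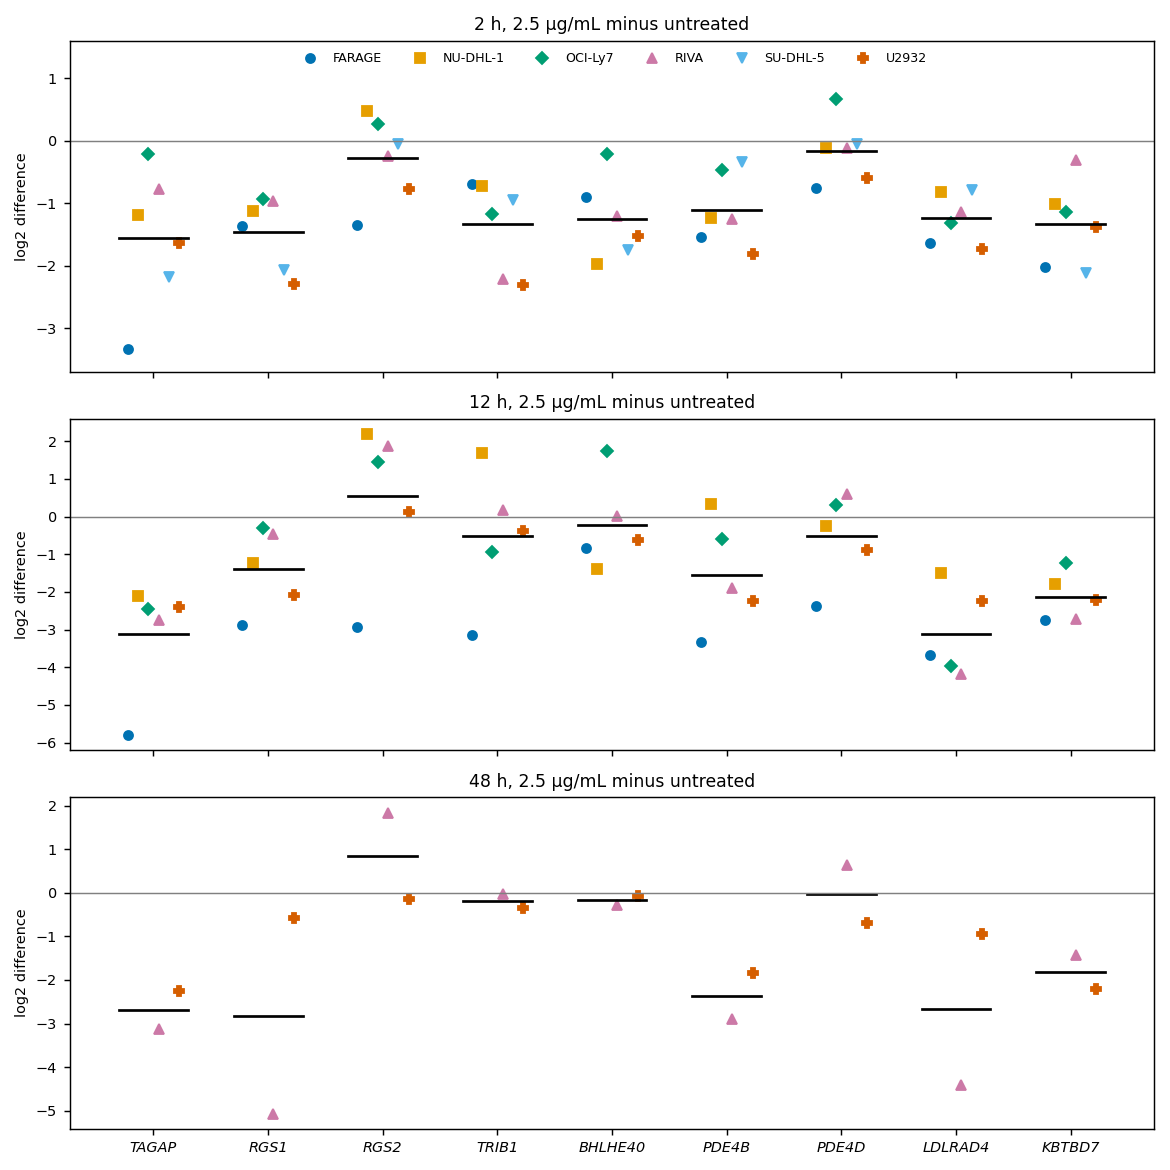
Difference in log2 intensity between 2.5 µg/mL and untreated cells of the same line (vertical axes) for each member, at 2 h (6 lines), 12 h (5 lines) and 48 h (2 lines). Points are lines and black bars are means over lines; at 12 h FARAGE is the lowest point of 7 members, and RGS2 in FARAGE lies at -2.93 with the other 4 lines above 0.

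The members' differences varied between lines. At 12 h FARAGE was the line with the lowest difference for 7 of the 9 members, all but BHLHE40 and LDLRAD4, and all 9 members were lower there, with a median of -2.93. In U2932 8 members were lower, in NU-DHL-1 and OCI-Ly7 6 and in RIVA 5, with medians of -2.09, -1.22, -0.60 and -0.47. Over all genes, 17.0% were lower by more than 1.0 in FARAGE, the highest share of the 5 lines, against 12.2% in U2932 and 10.4% in NU-DHL-1, which had the lowest. At 2 h the members were lower by the most in U2932 (median -1.63; 4 members lowest there) and FARAGE (median -1.36; 3 members), and by the least in OCI-Ly7 (median -0.47). Of all genes, 1.25% were lower by more than 1.0 in FARAGE at that time and 0.36% in U2932.

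At 48 h only RIVA and U2932 had arrays at 2.5 µg/mL, and the limma test had 1 residual degree of freedom of its own, the rest of the variance being borrowed from all genes. Its SE and adjusted p thus do not measure the spread between these 2 lines. TAGAP read 7.17 against 10.29 in RIVA and 7.05 against 9.31 in U2932. It fell by 2.69 ± 0.55 (SE; limma, adjusted p = 0.00973). PDE4B read 6.84 against 9.74 in RIVA and 7.20 against 9.04 in U2932, a difference of -2.37 ± 0.56 (SE; limma, adjusted p = 0.0169). Both genes were about equally low in the 2 lines. LDLRAD4 read 4.44 against 8.85 in RIVA and 4.91 against 5.86 in U2932, where the untreated level was itself below the 6.75 of 12 h (limma, -2.68 ± 0.66, adjusted p = 0.0205). KBTBD7 read 6.41 against 7.85 in RIVA and 4.79 against 7.01 in U2932 (limma, -1.83 ± 0.49, adjusted p = 0.0294).

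RGS1 at 48 h rested on RIVA. There the untreated array read 6.06 at 12 h and 9.73 at 48 h, and the treated array read 4.66. In U2932 the treated array, at 10.00, was near its control at 10.59 and 1.38 above its 12 h level. The mean of -2.83 ± 0.82 (SE) was called (limma, adjusted p = 0.0383), with -5.07 in RIVA and -0.59 in U2932. The SD over these 2 lines was 3.17, a spread that the SE with borrowed variance does not measure. Against the untreated 0 h arrays, a comparison added after the untreated 48 h arrays had been seen to differ, RGS1 stood at -1.16 and did not pass (adjusted p = 0.184).

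The same 5 members that were called at 12 h were therefore called lower at 48 h, when 8.28% of all genes were called lower and 13.9% in either direction. With 0 h arrays as controls only LDLRAD4 and KBTBD7 kept the call, and with variances that did not follow the expression level none did. Among the other 4, TRIB1 (-0.19 ± 0.53, SE) and BHLHE40 (-0.18 ± 0.52) differed little from their untreated arrays as deposited, and limma gave adjusted p = 0.827 and 0.837. On the poly-A scale they stood at -3.08 and -3.07 and were called lower (limma, adjusted p = 0.0019 and 0.00219), and on the hybridisation scale at -1.64 and -1.63 without a call (limma, adjusted p = 0.175 and 0.183), lower in 2 of 2 lines each. Of all genes 96.1% were called lower at 48 h on the poly-A scale, with a median of -2.71. On the hybridisation scale 26.8% were, with a median of -1.28. RGS2 read 11.23 against 9.39 in RIVA and 11.08 against 11.23 in U2932 (0.84 ± 0.51, SE; limma, adjusted p = 0.287). PDE4D was higher in RIVA by 0.63 and lower in U2932 by 0.69 (limma, adjusted p = 0.968).

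Untreated cells also differed between times for some members in single lines. At 48 h TAGAP was higher than at 0 h by 1.86 in OCI-Ly7, 1.33 in RIVA and 0.25 in U2932, RGS1 by 3.71 in RIVA and 1.27 in OCI-Ly7, and BHLHE40 by 1.90 in RIVA. RGS1 differed by -0.38 in U2932, and PDE4D was lower in all 3 lines, by 0.62 on average (unadjusted p = 0.00152 and adjusted p = 0.297 in limma). None of the 9 members passed in limma over the 3 lines, and no gene of the array did (0.0% called), although 3 members and 2552 genes had an unadjusted p below 0.05. Without U2932, TAGAP was called higher in untreated cells at 48 h. From 0 to 12 h no member passed either (0.0152% of all genes called), with KBTBD7 at -0.36 ± 0.11 (SE) and RGS1 at 0.31 ± 0.23 as the widest values; 1 member had an unadjusted p below 0.05.

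The low dose left the members near their untreated levels. At 0.00061 µg/mL and 12 h the 9 mean differences ran from -0.07 (TRIB1) to 0.16 (KBTBD7), over 6 lines. No member and no gene was called in limma (0.0% of all genes), and 0 members and 1481 genes had an unadjusted p below 0.05. The 95% interval of the TAGAP difference ran from -0.10 to 0.07, that of LDLRAD4 from -0.14 to 0.11 and that of RGS1 from -0.10 to 0.13. At 48 h the mean differences over 3 lines ran from -0.28 (BHLHE40) to 0.13 (PDE4D), again with no call (0.0% of genes), and 2 members and 1465 genes at an unadjusted p below 0.05. At 2 h they ran from -0.07 to 0.06, a description since the untreated arrays are those that chose the members. Low-dose cells at 2 h differed from untreated cells at 0 h for none of the 9 members in limma (1.42% of all genes called; 1 member at an unadjusted p below 0.05), with KBTBD7 at -0.21 ± 0.08 (SE) and RGS1 at 0.21 ± 0.11.

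**Figure D3:**
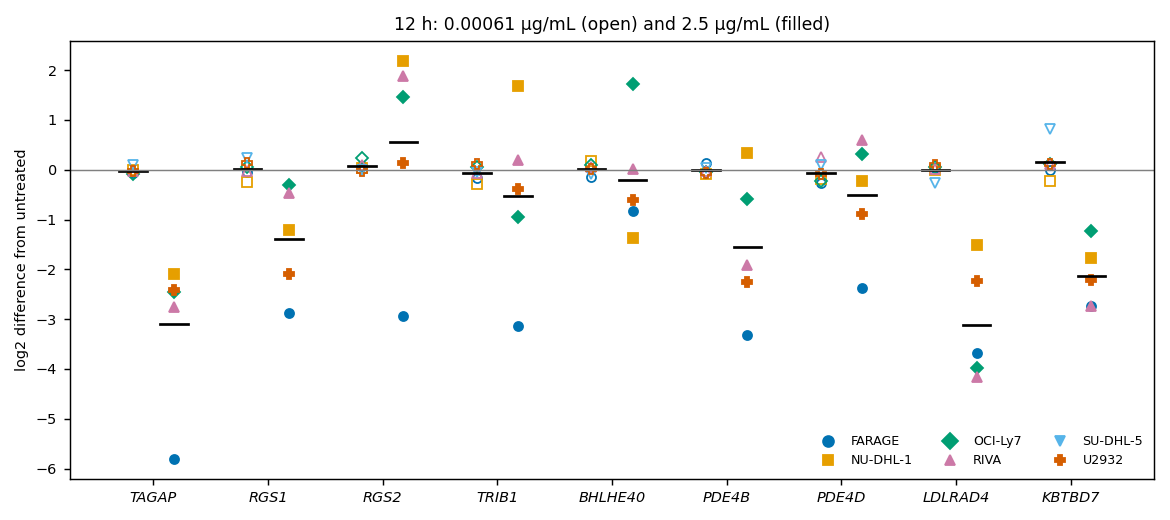
Difference in log2 intensity at 12 h from the matching untreated array (vertical axis) for each member at 0.00061 µg/mL (open, 6 lines) and 2.5 µg/mL (filled, 5 lines), with bars for the means. Open points lie near 0, with KBTBD7 in SU-DHL-5 at 0.82 the farthest, and filled points of TAGAP, LDLRAD4 and KBTBD7 lie below -1.0 in every line.

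The doses were also set directly against each other at 12 h in the 5 lines that had both. The difference, high minus low dose, was -3.06 ± 0.51 for TAGAP (SE; limma, adjusted p = 0.00547), -3.15 ± 0.40 for LDLRAD4 (adjusted p = 0.00234) and -2.16 ± 0.25 for KBTBD7 (adjusted p = 0.00198), each lower in 5 of 5 lines. RGS1 (-1.37 ± 0.39; adjusted p = 0.0345) and PDE4B (-1.53 ± 0.49; adjusted p = 0.0483; 4 of 5 lines) passed as well, and both lost the call without FARAGE, OCI-Ly7, RIVA or U2932. Of all genes 29.1% were called in this comparison, 14.3% lower. RGS2 (0.46 ± 0.66), TRIB1 (-0.45 ± 0.59), BHLHE40 (-0.25 ± 0.41) and PDE4D (-0.42 ± 0.36) did not pass. This comparison shares its treated arrays with that against untreated cells.

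The remaining probe sets of the members are dimmer, since the brightest stands for each gene. At 2 h the 5 TAGAP probe sets read -1.55, -1.39, -0.56, -0.43 and -0.07, the 3 of RGS1 -1.46, -1.37 and -0.26, and the 3 of KBTBD7 -1.32, -1.11 and -0.93. LDLRAD4 read -1.24, -0.79, -0.31 and -0.22, and PDE4B -1.11, -0.90 and -0.43. The second probe set of BHLHE40 read -0.36 at 2 h, lower in 4 of 6 lines, and 0.09 at 12 h. With all probe sets averaged, TRIB1 at 2 h was -0.50 and LDLRAD4 -0.64. All 3 probe sets of KBTBD7 were lower at 12 h, by -2.14, -2.91 and -2.79 on average, in 5 of 5 lines each. Of the 5 TAGAP probe sets 4 were lower in every line at 12 h, with means of -3.10, -2.24, -1.55 and -0.97. The other one, with a mean level of 6.22, differed by 0.34 and was lower in 1 of 5 lines. For RGS1 a second probe set read -1.74 at 12 h, and the third, near the bottom of the scale at 2.47, read -0.11. LDLRAD4 probe sets ranged from -3.11 to -0.21, and those of PDE4B from -1.55 to -0.58. The other probe sets of TRIB1 and PDE4D lay between 2.56 and 3.30 over all arrays, below the median gene, and their differences at 12 h ran up to 0.61.

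**Figure D4:**
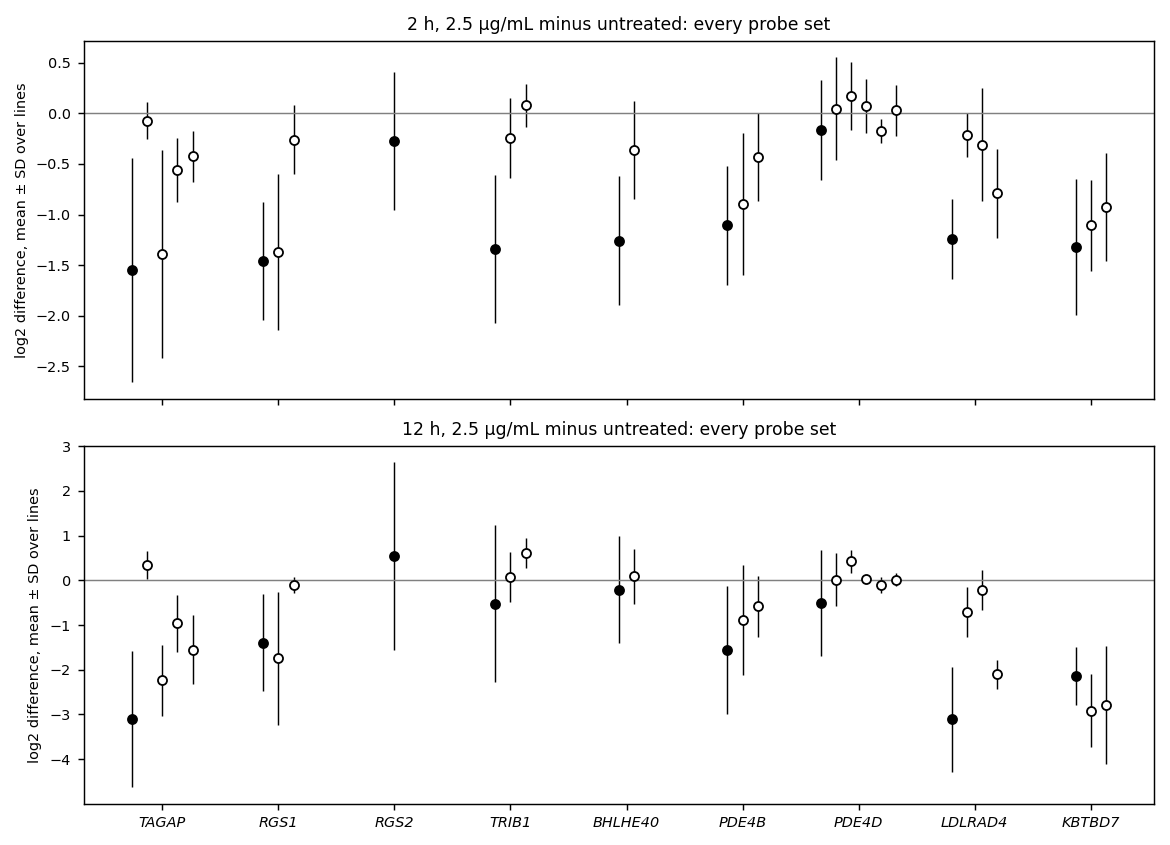
Mean difference in log2 intensity between 2.5 µg/mL and untreated cells, with the SD over lines as bars, for each of the 30 probe sets of the members at 2 h (6 lines) and 12 h (5 lines). Filled points are the probe sets that stand for the gene and open points the others; 4 of 5 TAGAP probe sets and all 3 of KBTBD7 lie below 0 at both times, and 1 TAGAP probe set lies at -0.07 and 0.34.

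The closest relatives of the members gave varied courses. KBTBD6, the neighbour of KBTBD7 in the BTB-kelch family and also a CUL3 adaptor, fell by 3.46 ± 0.44 (SE; limma, adjusted p = 0.00248) in 5 of 5 lines at 12 h and stood at -2.72 ± 0.56 (SE; adjusted p = 0.00997) at 48 h. KBTBD6 and KBTBD7 are close paralogues on chromosome 13, and whether a probe set of one also binds transcripts of the other was not tested. RGS16, in contrast to RGS1, rose by 1.95 ± 0.47 (SE; limma, adjusted p = 0.0188) in 5 of 5 lines at 12 h, and also lay above 0 on the poly-A and hybridisation scales (0.36 and 1.30). RGS13, a germinal-centre RGS protein named here outside the rule for list genes, fell by 1.62 ± 0.24 (SE; limma, adjusted p = 0.00413). Among other relatives outside that rule, TRIB3 stood at -1.35 ± 0.31 at 12 h (SE; limma, adjusted p = 0.0162). TRIB2 (0.21 ± 0.56, SE), BHLHE41 (0.24 ± 0.61) and PDE4A (0.17 ± 0.30) did not pass at 12 h (limma, adjusted p = 0.773, 0.768 and 0.666), and each went both ways between lines at that time. RGS18 (0.51), PMEPA1 (0.12), KBTBD2 (-0.67) and PDE3B (0.30) did not pass at 12 h either (limma, adjusted p = 0.117, 0.732, 0.183 and 0.324). TRIB2 was called lower at 2 h (-0.42 ± 0.06, SE; limma, adjusted p = 0.00056), in 6 of 6 lines. KBTBD6 was also called lower at 2 h (-0.95 ± 0.11, SE; limma, adjusted p = 0.000266), in 6 of 6 lines. RGS16 was called higher (1.03 ± 0.22, SE; limma, adjusted p = 0.00875), and no other relative read here was called at 2 h. At 48 h TRIB2 was called higher over 2 lines (1.81 ± 0.49, SE; limma, adjusted p = 0.0295), but stood at -1.08 on the poly-A scale and 0.35 on the hybridisation scale. PMEPA1 was called higher at 48 h too (1.47 ± 0.44, SE; limma, adjusted p = 0.044), and stood at -1.42 and 0.02 on these scales.

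A further 7 lists of genes that work with the members were read at 12 h, with the members left out. Of 35 measured BTB-kelch and CUL3 genes, 11 were called lower and 4 higher (median -0.59), led by KBTBD6, KLHL9 (-3.35) and the B-cell gene KLHL6 (-1.86). Of 11 Tribbles and COP1 genes, 5 were lower and 2 higher (median -0.20), led by COP1 itself (-2.16), its partner DET1 (-2.14) and the kinase MAP2K4 (-1.97).

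The receptor-proximal lists were mixed. Of 18 RGS proteins 4 were lower and 3 higher (median 0.31), led by RGS19 (-2.07), RGS16 and RGS5 (-1.76). Of 25 lymphocyte G-protein-coupled receptors and G proteins 3 were lower and 1 higher (median -0.07): P2RY8 (-2.96), a receptor that confines germinal-centre B cells through GNA13, GNA13 itself (-1.14) and GNAI3 (-0.71) fell. Of 30 cyclic AMP genes 3 were lower and 7 higher (median 0.30), led by the adenylyl cyclase ADCY7 (-1.65), the transcription factor CREB1 (-1.45) and ADCY10 (1.07). All 7 of the higher ones lay below 0 on the poly-A scale, and all but ADCY10 and PRKACA also on the hybridisation scale.

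Of 24 TGF-beta and SMAD genes, 4 were lower and 4 higher (median -0.52). The pseudoreceptor BAMBI (2.24) and the inhibitor SMAD7 (1.65) rose, the latter by only 0.06 on the poly-A scale, while the common mediator SMAD4 fell (-2.11). Of 15 clock genes none was lower and 3 were higher (median 0.24): CRY2 (0.68), NPAS2 (0.56) and HLF (0.38), which all lay below 0 on the poly-A scale, and NPAS2 and HLF on the hybridisation scale too. These counts stand beside 14.7% of all genes called lower and 18.2% called higher, and beside the median of 0.20 over all genes. Of the genes called higher in the 7 lists, RGS16, BAMBI, SMAD7 and KLHL28 (0.07) lay above 0 on the poly-A scale and the others below it.

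The genes whose differences ran most closely with each member were found over 28 differences, 13 of them at the high dose, among genes at or above the median level. These points share untreated arrays between doses and repeat the same 6 lines at several times. They also include the 2 h high-dose differences on which the members were chosen, so the correlations are descriptions. TAGAP ran with ZBTB14 (r = 0.95) and BAG4 (0.95), LDLRAD4 with TMEM186 (0.96) and THAP5 (0.96), and KBTBD7 with TAGAP (0.89) and BCDIN3D (0.89). RGS1 ran with EMSY (0.85) and PHACTR1 (0.84), PDE4B with CEP85L (0.93) and REV3L (0.92), and PDE4D with E2F3 (0.89) and SMPDL3A (0.86). RGS2 ran with WHAMM (0.91) and CLOCK (0.91), TRIB1 with RAPGEF2 (0.82) and NR2C2 (0.82), and BHLHE40 with ZHX2 (0.66) and HASPIN (0.65), the lowest values of the 9. Among the members, over the 13 high-dose differences, RGS2 ran closest with PDE4D (r = 0.82) and TRIB1 (0.80). The r of BHLHE40 and LDLRAD4 was negative (-0.62), although both were lower in 6 of 6 lines at 2 h and in 2 of 2 at 48 h. Their falls thus differed in depth more than in direction. FARAGE at 12 h gave the lowest value of RGS2 (-2.93), TRIB1 (-3.14) and PDE4D (-2.38), and its part in these r values was not tested.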

How the data were processed

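Messenger RNA was measured on 49 Affymetrix arrays of 54675 probe sets. Per the submitters' processing notes, the authors made the deposited log2 intensities with RMA (background correction, quantile normalisation and probe-set summary) in affy under R 3.0.2. An array gives no count, so the number of arrays limits the precision. Groups were read from the sample titles. Probe sets listing 1 gene in the platform annotation (41097, while 1801 list several and 11777 none) gave 19775 genes, each by its probe set with the highest mean. Gene names followed RefSeq for 41043 of the 41097 probe sets.

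Models were fitted in R 4.3.3 with limma 3.58.1, taking the line as a block and letting the variance follow the level, over lines with both arrays. Each SE printed with a difference is that of limma, whose variance for a gene borrows from all genes. Benjamini-Hochberg adjustment ran over all 19775 genes, with calls made below 0.05. The fit was tested on simulated data. Summaries used Python 3.11.15, pandas 2.3.3 and numpy 2.4.6.

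The members and the lists were chosen with earlier results of these data known. Named genes were the members, for each member the 2 genes with the highest Pearson r, and up to 3 called genes per list with the widest difference at 12 h; relatives named outside this rule are marked. Pairing by line came from the shared cell line. Promoter sequences were those of RefSeq (GRCh38.p14), with 1 start per gene. The alternatives were other array scalings, no variance trend, no line block, a joint fit, a filter on dim genes, other control arrays, the mean of all probe sets and each line left out. The result of 1 further gene list is not reported here.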

Additional observations from a re-analysis of the deposited data

Results flagged for a closer look

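Over the 36 groups of lines examined for a value far from the rest, chance alone marks about 1 in 20. TAGAP at 12 h of 2.5 µg/mL stood at -5.81 in FARAGE, while the other 4 lines lay between -2.75 and -2.09. LDLRAD4 at 12 h of 0.00061 µg/mL stood at -0.26 in SU-DHL-5, while the other 5 lines lay between -0.01 and 0.09. KBTBD7 in the same low-dose comparison stood at 0.82 in SU-DHL-5, while the other 5 lines lay between -0.24 and 0.12. SU-DHL-5 has no array at 2.5 µg/mL and 12 h, so these low-dose values cannot be set beside a high-dose one.

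At 48 h the values of 2 members had opposite signs at the 2 doses in every line with arrays. TAGAP was lower at 2.5 µg/mL in both lines (mean -2.69) and higher at 0.00061 µg/mL in all 3 lines (mean 0.10), a gap of -2.78. LDLRAD4 had means of -2.68 and 0.09, a gap of -2.76. The low-dose values did not pass (limma, adjusted p = 0.723 and 0.846). The high-dose arrays were also set directly against the low-dose arrays of the same 2 lines. TAGAP at the high dose stood at -2.82 (limma, adjusted p = 0.000381) and LDLRAD4 at -2.79 (limma, adjusted p = 0.000218). TAGAP read 7.17 against 10.45 in RIVA and 7.05 against 9.42 in U2932. LDLRAD4 read 4.44 against 8.88 in RIVA and 4.91 against 6.06 in U2932. The test had 1 residual degree of freedom of its own and borrowed the rest of its variance from all genes. Its adjusted p thus does not measure the spread between these 2 lines. The comparisons of both doses with untreated cells use the same untreated arrays.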

How the results depend on the processing

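The 5 members called lower at 12 h of 2.5 µg/mL became 9 with arrays scaled to the poly-A controls and 2 without the replicate block, and 3 to 5 were called with a line left out (3 without RIVA or U2932; without FARAGE 4, RGS2 being the higher one). Against the low dose at 12 h the count was likewise 9, 2 and 3 to 5. At 48 h it went from 5 to 9 on the poly-A scale, 0 with variances without a trend, 0 without the block, 3 with the mean of all probe sets and 2 against untreated 0 h arrays. Of all genes, 94.8% were called lower on the poly-A scale at 12 h, 96.8% against the low dose and 96.1% at 48 h. On the poly-A scale 2 members were called higher at the low dose at 12 h, 2 in untreated cells at 12 h and 5 at 48 h against 0 h, and 3 in low-dose cells at 2 h against 0 h. Of all 19775 genes, 3815, 798, 5104 and 5560 were called higher there, in that order. With a line left out, 0 to 1 member was called in untreated cells at 48 h (TAGAP without U2932). The members' median at 2 h was -0.80 with the mean of all probe sets, against -1.26. The cause of these changes was not tested. At 2.5 µg/mL signs turned only for members that had not passed. RGS2 at 12 h was -1.05 on the poly-A scale and -0.11 on the hybridisation scale, and at 48 h -2.04 and -0.61, or -0.15 to 1.84 by line. TRIB1 was 0.055 at 12 h with the mean of all probe sets and -1.07 to 0.13 with a line left out, and at 48 h 0.11 with that mean and 0.033 in the joint fit. BHLHE40 was -0.70 to 0.075 at 12 h with a line left out, and at 48 h 0.038 in the joint fit and 0.88 against 0 h arrays. PDE4D at 48 h was -0.69 to 0.63 by line. At 48 h and the high dose a left-out line leaves 1 line, hence a value with no test.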
